A study of Tribolium castaneum with 2 samples.

Results

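The most abundant genes of the *T. castaneum* larva were taken as the reference genes with a TC identifier and a mean of at least 1000 FPKM over 2 libraries. FPKM is a fragment count corrected for transcript length and for library size. By this rule 231 of 17070 reference genes were members, of which 16542 carry a TC identifier. The members were thus chosen by the measured levels, which are given as a description.

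RNA of wild type last-instar larvae, 20 days from oviposition, was sequenced as 1 library after 12 h of normoxia and 1 library after 12 h in sealed bottles supplied with 2% O2, 18% CO2 and 80% N2. The treatment therefore lowered O2 and raised CO2 at once, and their effects cannot be told apart. Both libraries came from poly(A) RNA of pooled larvae, so fewer cells of a type and less RNA per cell cannot be told apart either. The sample labels carry only the titles TC1 and TC2, and the legend of a supplementary figure names TC1 as the control and TC2 as the treated library. The files hold no read counts, so the depth behind each value is known only through the intervals. With 1 library per condition there is no replicate check and no test, and a difference below is a difference between these 2 libraries.

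In an insect larva the transcripts made in bulk commonly come from genes for ribosomal proteins, muscle, cuticle, energy supply, digestion and secreted small proteins. Digestive amylases are made in the midgut and break down starch, the main carbohydrate of flour. Odorant binding proteins and chemosensory proteins are small secreted carriers of hydrophobic molecules, which in insects occur in the antennae and in other tissues. Only 7 members had a name in the sources used here, and the other 224 are described by identifier, position, structure and level, with no function given.

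The members held 51.0% of the sum of FPKM of all transcripts in normoxia and 54.5% in hypoxia. The 9424 genes with a TC identifier and a mean of 1 to 1000 FPKM held 38.5% and 40.3%. FPKM counts molecules rather than bases, and many members are short. As a share of sequenced bases, taken as coverage times exonic length, the members held 39.1% in normoxia and 39.7% in hypoxia, so the difference between the libraries was smaller on that scale. The sum of FPKM also contains 528 reference genes without a TC identifier, which held 6.67% in normoxia and 1.10% in hypoxia. Both shares are uncertain, since their intervals reach 3.23 percentage points each way in normoxia and 1.19 in hypoxia, the latter more than the share itself. With these 528 genes left out of the sum, a choice made after seeing the data, the members held 54.7% and 55.1%.

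**Figure D1:**
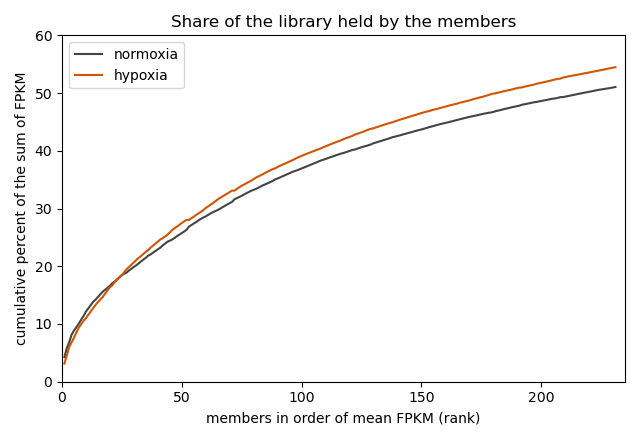
Cumulative percent of the sum of FPKM (y axis) against the rank of the member by mean FPKM (x axis), 1 line per library. The 10 highest members held 12.2% in normoxia and 11.0% in hypoxia, the 50 highest held 25.7% and 27.5%, and the lines end at 51.0% and 54.5%.

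The levels were uneven. Member values ran from 211 to 57186 FPKM in normoxia, with a median of 1927, and from 41.5 to 39745 FPKM in hypoxia, with a median of 1968. Cufflinks gives an interval with each FPKM, whose half-width had a median of 4.50% of the value (normoxia) and 4.45% (hypoxia). They cover counting error and the division of fragments among transcripts inside 1 library, and hold nothing of the spread between larvae. Members at or above 10000 FPKM numbered 5 in normoxia and 7 in hypoxia.

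TC009334 (ChLG7, 1511809 to 1512155), a 2-exon gene of 297 coding bases, was the highest member in both libraries. It stood at 57186 FPKM (56710 to 57662) in normoxia and at 39745 FPKM (39366 to 40123) in hypoxia, or 4.26% and 3.14% of the sum of FPKM. Its log2 ratio of hypoxia over normoxia, after adding 0.1 FPKM to both values, was -0.52 (-0.54 to -0.51). Ranges beside log2 ratios span 2 standard errors each way and come from the same intervals. By FPKM this member lay far above all others, and the difference stayed short of the 1.5-fold used below. As coverage times exonic length it held less, 1.41% of the total in normoxia and 0.933% in hypoxia.

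TC011411 (ChLG10, 8134599 to 8135037) followed with 20766 FPKM in normoxia and 18661 in hypoxia, a log2 ratio of -0.15. TC003326 (ChLG3, 1567765 to 1568895), a single exon of 1131 bases, had 14065 and 17841 FPKM. Its normoxia value is that of an assembled transcript that contains the gene, and its hypoxia value is that of the reference transcript. TC003041 (ChLG3, 5353484 to 5353712) had 17316 and 10033 FPKM, and its normoxia value is doubtful for a reason given with its neighbours. Of the next members, TC011769 (9715 and 10290 FPKM) and TC000791 (7577 and 7688 FPKM) differed little between the libraries. TC015902 (8062 and 11639 FPKM) and TC015373 (7809 and 10525 FPKM) were higher in hypoxia, by log2 ratios of 0.53 and 0.43. TC012177 (9257 and 7587 FPKM) and TC012704 (8731 and 7387 FPKM) were lower. These 4 differences had intervals that do not overlap but were under 1.5-fold.

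The rest of the 20 highest members showed the same spread of small differences, apart from those in the runs of neighbours on ChLG3 and ChLG7 described below. TC011410 had 7853 and 7172 FPKM, TC007135 had 5099 and 7197, TC011001 had 6285 and 5769, and TC000933 had 6263 and 5514, in normoxia and hypoxia. TC001880 had 6061 and 6227 FPKM by the sum, but its reference transcript had 4394 FPKM in normoxia and 2192 in hypoxia, while the share of assembled transcripts went from 27.5% to 64.8%. TC014807 had 6977 and 7047 FPKM, but in both libraries this is a 3-exon assembled transcript that shares 12 bases with the 3225 coding bases of the gene. The reference model itself is listed at 0 in each library, so the level is that of a transcript at the gene's edge rather than of the gene model.

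At the other end, the last members inside the threshold were TC012647 with a mean of 1016 FPKM, TC009796 with 1013 and TC005398 with 1002. The first genes outside it were TC011000 with a mean of 996 FPKM, TC007063 with 991 and TC004873 with 982. TC004873 had 1186 FPKM in normoxia and 778 in hypoxia. In all, 203 members reached 1000 FPKM in both libraries, 15 were below it in normoxia and 13 in hypoxia.

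The members were short genes with few and short introns. The reference models hold no untranslated regions, since 99.5% of the TC genes have an exonic length that is a multiple of 3, and this length is called the coding length. The median coding length was 540 bases in the members, 1230 bases in genes of 1 to 1000 FPKM and 981 bases in the 1289 genes of 100 to 1000 FPKM. Of the members, 32 (13.9%) were under 300 bases, against 3.31% of the genes of 1 to 1000 FPKM, and 11 (4.76%) were over 2000 bases, against 23.7%. In genes of 100 to 1000 FPKM these shares were 4.50% and 12.7%. FPKM is divided by length, so at the same number of fragments a short gene passes the threshold more easily than a long one.

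Exon number differed in the same direction. A count of 2 or 3 exons was found in 132 members (57.1%), against 29.4% of genes of 1 to 1000 FPKM, and 6 or more exons in 19 members (8.23%), against 35.7%. In genes of 100 to 1000 FPKM these shares were 35.5% and 29.1%. Single-exon genes made up 11.7% of the members and 10.6% of the genes of 1 to 1000 FPKM, so intronless genes were about as frequent in both. Among members with an intron, the summed intron length had a median of 235 bases, against 1224 bases in genes of 1 to 1000 FPKM, and was under 100 bases in 28.9%, against 13.7%. The gene span had a median of 884 bases, against 2456.5 bases. Long genes were present as well, since 8 members spanned more than 10 kb and the longest coding length was 10095 bases.

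**Figure D2:**
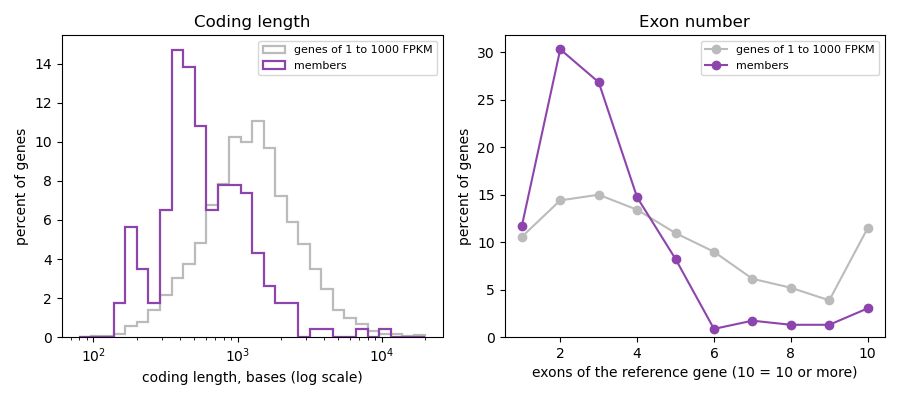
Left, percent of genes (y axis) by coding length in bases on a log scale (x axis); right, percent of genes by exon number, with 10 standing for 10 or more. The members (purple) have a median of 540 bases and 3 exons, the genes of 1 to 1000 FPKM (grey) one of 1230 bases and 4 exons.

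The members lay on every linkage group. ChLG7 held 38, ChLG8 held 31, and ChLG2 and ChLG3 held 26 each, while 10 were on unplaced sequence, which the files call Unknown. As a share of the TC genes of each group, members ranged from 0.995% on ChLG9 to 2.07% on ChLG10, and were 0.481% on unplaced sequence.

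Neighbouring genes were more often abundant. Along the linkage groups, 23.3% of the immediate neighbours of members had a mean of 100 FPKM or more, against 11.2% of the neighbours of genes of 1 to 1000 FPKM. For genes of 100 to 1000 FPKM the share of such neighbours was 14.2%. The gap to the nearest gene had a median of 591 bases in members and 598 bases in genes of 1 to 1000 FPKM. Runs of adjacent members numbered 15 and held 35 of the 221 placed members (15.8%), with 11 pairs and 4 runs of 3 or more. The genes of 8 runs were all on one strand and 7 runs held both strands, and in 10 runs the log2 ratios lay within 0.5 of each other. The same counts were not taken for members that are not adjacent. Of all members, 58.9% differed by at most 1.2-fold between the libraries, so neither count is read as a trait of neighbours.

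The longest run was the amylase stretch of ChLG2 (10467808 to 10476812), with TC000937, TC000938, TC000939 and TC000940 on one strand. Alpha-amylase TC000937 went from 3634 FPKM (3480 to 3789) in normoxia to 1498 FPKM (1432 to 1564) in hypoxia. Alpha-amylase TC000938 went from 1553 to 663 FPKM, and alpha-amylase TC000939 from 2282 to 1003 FPKM. TC000940, the next gene, which has no name in the sources used here, went from 2487 to 1102 FPKM. All 4 members fell, by log2 ratios of -1.28, -1.23, -1.19 and -1.17. The 3 amylases have the same 5 exon lengths in the same order (1473 coding bases), so near-identical copies may share fragments and their separate levels are uncertain. TC000940 has 2 exons and 849 coding bases. In all 4 genes both values are those of the reference transcript alone. Together the run went from 9956 to 4267 FPKM.

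The amylases are part of a list of 16 digestive enzymes that the study named on these libraries, so their direction is not independent evidence. Of the 15 list genes in the background of 1 FPKM or more, 12 were called lower and 3 higher, with a median log2 ratio of -1.19. Of the 16, the 3 amylases are members. Of 38 genes in all the lists taken from the study, 5 were members. None of the 8 listed genes of glucose uptake, glycolysis, lactate and the Krebs cycle was, the highest of them having a mean of 606 FPKM. The list does not hold all genes of these pathways, and others may be among the members without a name.

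A stretch of small genes on ChLG3 (5323244 to 5362900, 39.7 kb) held 26 genes, of which 21 have 2 exons and under 300 coding bases. It contained 9 members of 159 to 204 coding bases, each with a first exon of 12 bases and an intron of 51 to 70 bases. Their function is not given in the sources used here. The stretch was delimited after seeing the data. Of its 17 other genes, 6 were listed at 0 in both libraries, and for 4 of these the interval reached above 0.

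TC003053 went from 1010 to 2712 FPKM, TC003387 from 2682 to 5265 and TC003044 from 4249 to 7420 between normoxia and hypoxia. TC003038 went from 3499 to 5573 FPKM and TC003039 from 4513 to 6952. TC003053 overlaps TC003381 on the other strand by 150 exonic bases, a gene with 489 and 1158 FPKM, and their reads cannot be told apart. These 5 of 9 members were called higher, beside 13.9% of all members and 7.54% of all genes, with log2 ratios from 0.62 to 1.42. TC003386 (4661 and 6686 FPKM) and TC003045 (2989 and 3683) differed by less than 1.5-fold with separate intervals, and those of TC003046 (4847 and 5135) overlapped. TC003041 alone was lower, with a log2 ratio of -0.79 (-0.88 to -0.70). Of its 17316 FPKM in normoxia, 12264 belong to an assembled transcript that joins it to TC003037, and its reference transcript went the other way, from 5052 to 10033 FPKM. All 9 members together had a ratio of summed FPKM of 1.17. They held 3.41% of the sum of FPKM in normoxia and 4.23% in hypoxia. As coverage times exonic length the shares were nearly alike, 0.748% and 0.773%. The 8 members without TC003041, left out after its value was seen, summed to 28450 FPKM in normoxia and 43426 in hypoxia, a ratio of 1.53. For 2 members the rise depended on the assembly: by the reference transcript alone TC003039 had a log2 ratio of 0.04, and the reference transcript of TC003038 was listed at 0 in normoxia. All 3499 FPKM of TC003038 in normoxia, and 3755 of its 5573 FPKM in hypoxia, belong to an assembled transcript that joins it to another gene. By that transcript alone its log2 ratio was 0.10. TC003038 was nonetheless kept among the 8 members and the 5 called higher, so its rise is as doubtful as the fall of TC003041. By coverage the ratio of the 8 was 1.44, and TC003044 had a log2 ratio of 0.40, under 1.5-fold. Several genes of the stretch share exon lengths, among them TC003038, TC003041 and TC003386 with 171 coding bases, so fragments may be divided among like copies.

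**Figure D3:**
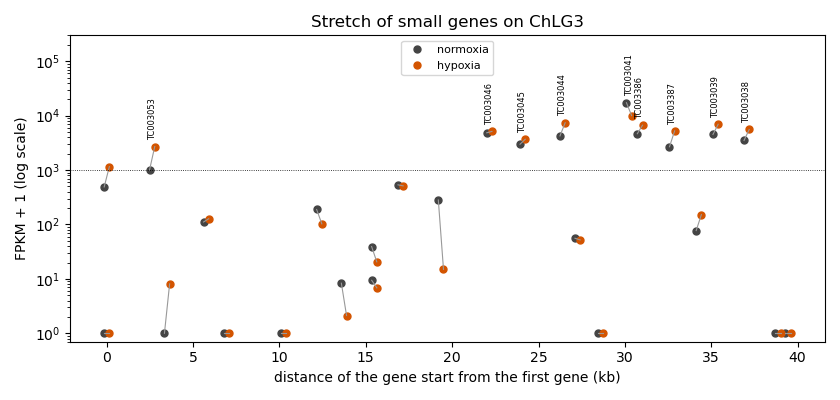
FPKM + 1 on a log scale (y axis) of 26 genes against the distance of the gene start from the first gene in kb (x axis), grey for normoxia and orange for hypoxia; the dotted line is 1000 FPKM and names mark the 9 members. Most members sit higher in hypoxia, TC003041 sits lower, and genes listed at 0 lie among them.

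On ChLG7 the highest member stood beside 2 others. TC009333 (1513713 to 1514596) went from 10359 to 5519 FPKM and TC009478 (1513743 to 1516738) from 1861 to 1174 FPKM, log2 ratios of -0.91 and -0.66. TC009334 was lower as well, though by less than 1.5-fold, and the run went from 69405 to 46438 FPKM. TC009333 and TC009478 overlap by 177 exonic bases on opposite strands. The strand of the library is not stated, so reads of the pair cannot be told apart. Most of TC009333 came from assembled transcripts whose ends differed between the libraries. By its transcript of highest mean FPKM the log2 ratio was -0.20, which ends the call, and its reference transcript was listed at 0 in hypoxia.

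Among the pairs were rises, a fall and differences under 1.5-fold. On ChLG7, TC009099 (8870923 to 8871216) went from 1132 to 2511 FPKM and its neighbour TC009098 from 791 to 1449 FPKM. Both rose, by log2 ratios of 1.15 and 0.87, and both values are of reference transcripts alone. TC009098 passed the threshold on its hypoxia value, so its rise is tied to the rule that chose it. On ChLG4, TC007136 had 2784 and 6998 FPKM and its neighbour TC007135, given above, was higher by a log2 ratio of 0.50. On ChLG10 the pair of TC011410 and TC011411, and on ChLG9 that of TC012178 and TC012177, had log2 ratios between -0.29 and -0.13. On ChLG6, TC030688 had 1346 and 826 FPKM and was called lower, with a log2 ratio of -0.70 by the sum and -0.01 by the reference transcript. TC030688 passed the threshold on its normoxia value. Its neighbour TC030666 had 2161 and 2148 FPKM.

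Most members differed little between the libraries. Their median log2 ratio was 0.00, against -0.10 in the background of 9731 genes at a mean of 1 FPKM or more and 0.00 in genes of 100 to 1000 FPKM. A difference of at most 1.2-fold was found in 136 members (58.9%), against 41.8% of all genes and 51.8% of genes of 100 to 1000 FPKM. Called higher or lower are genes whose values differ by 1.5-fold or more with separate intervals. By this rule 47 members (20.3%) were called, against 19.6% of all genes. Of the members 32 (13.9%) were higher, against 7.54% of all genes, and 15 (6.49%) were lower, against 12.1%. In genes of 100 to 1000 FPKM the shares were 9.78% and 7.91%. Scaling moves this balance: with FPKM rescaled to the same sum outside the members, 47 were higher and 11 lower. The rule on the mean also admits genes that are high in 1 library only, and these add to the calls. Of the 203 members at 1000 FPKM or more in both libraries, 21 were higher and 8 lower.

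**Figure D4:**
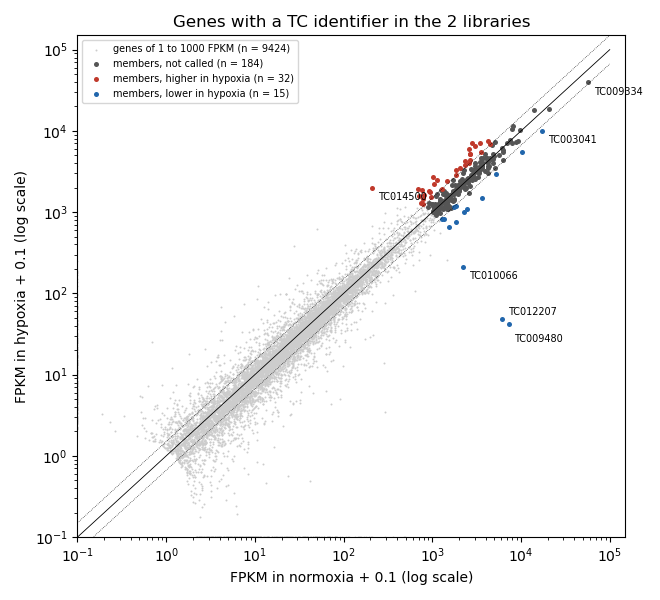
FPKM + 0.1 in hypoxia (y axis) against normoxia (x axis), both log scales, for the 9424 genes of 1 to 1000 FPKM (light grey) and the 231 members; the solid line is equality and the dotted lines are 1.5-fold. Most members lie near the line, 32 above and 15 below the dotted lines, with TC009480, TC012207 and TC010066 far below.

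The calls differed with the way transcripts were assembled. In 95 members no assembled transcript was found in either library, so both values are of the same reference transcript, and 14 of these were higher and 6 lower. Of the 32 members called higher, 18 were at least 1.5-fold higher also by the reference transcript alone and by the transcript of highest mean FPKM alone. Of the 15 called lower, 9 held in the same way. These 18 and 9 include the 14 and 6 above, for which the choices are the same value, so their agreement is no check. Among the 9, TC012207 held against a reference transcript listed at 0 in hypoxia. In 18 members, 11 of them called, most of the FPKM in one library or the other belonged to transcripts that share less than 50% of the coding bases. Such values compare different pieces of a gene.

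Of the members that fell, odorant binding protein C01 (TC010066; ChLG7, 16276533 to 16276980) had the largest fall with the reference transcript alone in both libraries. It stood at 2227 FPKM (2157 to 2297) in normoxia and at 211 FPKM (191 to 232) in hypoxia, a 10.5-fold difference with a log2 ratio of -3.40 (-3.54 to -3.25). This gene passed the threshold on its normoxia value, as did TC000938 and TC030688 above and TC012207, TC009480 and TC011123 below. TC008757 (ChLG7, 16265611 to 16266098), a member of the same exon lengths 10.4 kb away, had 6318 and 4406 FPKM, with a log2 ratio of -0.52. Of its hypoxia value 75.8% came from assembled transcripts, and by the reference transcript alone TC008757 had 5753 and 1068 FPKM, with a log2 ratio of -2.43. Both were lower in hypoxia, and how far their changes differed depends on the transcripts counted.

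TC012207 (ChLG9, 1000324 to 1001463), a single exon of 1140 coding bases, had 6156 FPKM (6099 to 6213) in normoxia and 47.8 FPKM (42.9 to 52.7) in hypoxia. The hypoxia value is that of an assembled transcript of 1270 bases that contains the whole gene, and the reference transcript is listed at 0 there. The estimated coverage went from 10946 to 97.3, and the FPKM differed 129-fold. TC009480 (ChLG7, 1534315 to 1536043) had 7228 FPKM in normoxia and 41.5 in hypoxia. The normoxia value is that of a 2-exon transcript at one end of the gene and the hypoxia value is the sum of transcripts at the other end. The reference model is listed at 0 in each library. The log2 ratio of -7.44 thus compares different parts of TC009480. The gene also overlaps TC009332 on the other strand by 297 bases.

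TC007601 (ChLG4, 3080997 to 3081244), of 189 coding bases, fell from 5182 to 2974 FPKM, with -0.80 as its log2 ratio. TC011123 (ChLG10, 6427337 to 6427920) went from 1840 to 751 FPKM by the sum, but its reference transcript went the other way, from 433 to 751 FPKM.

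Of the members that rose, TC014500 (ChLG5, 14181222 to 14181667), with 2 exons and 303 coding bases, had the largest rise. It went from 211 FPKM (182 to 239) in normoxia to 1994 FPKM (1911 to 2076) in hypoxia, a 9.46-fold difference and a log2 ratio of 3.24 (3.04 to 3.45), by its reference transcript in both libraries. It was the lowest member in normoxia and passed the threshold on its hypoxia value. Chemosensory protein TC008682 (ChLG7, 18328493 to 18328937) went from 2574 FPKM (2497 to 2651) to 5912 FPKM (5800 to 6023), a log2 ratio of 1.20. It thus moved opposite to odorant binding protein C01, another small carrier.

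Named members of metabolism also rose. Phosphoserine aminotransferase (TC000542; ChLG2, 12337085 to 12338392), an enzyme of serine synthesis, rose from 2642 to 5167 FPKM, with 0.97 as its log2 ratio (0.90 to 1.04). Ribose-phosphate pyrophosphokinase (TC002990; ChLG3, 7123346 to 7127734), which makes the ribose donor of nucleotide synthesis, rose from 2051 to 3542 FPKM, with 0.79 as its log2 ratio (0.70 to 0.88). The study chose these names on the same libraries, so their direction is not independent evidence.

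Other large rises rested partly on assembly. TC006639 (ChLG8) went from 682 to 1931 FPKM and TC010517 (ChLG3) from 1043 to 2199 FPKM, and both were at least 1.5-fold higher by the reference transcript as well. For TC006639 the reference transcript went from 278 to 439 FPKM, with a log2 ratio of 0.66, a smaller rise than by the sum, since 1492 FPKM in hypoxia belonged to a transcript that shares 94 of its 318 coding bases. TC007136 rose to 6998 FPKM through a 4-exon transcript of 6574 FPKM in hypoxia that shares 363 of its 1782 coding bases, while its reference transcript had 351 and 424 FPKM. TC015654 (3061 and 6496 FPKM) and TC010609 (773 and 1865 FPKM) were higher by the sum and lower by the reference transcript, with log2 ratios of -0.54 for both. TC013605 had 710 and 1594 FPKM from assembled transcripts that share 154 of its 396 coding bases. TC006639, TC010609 and TC013605 passed the threshold on their hypoxia values. In normoxia most of TC007136 lay in transcripts of 978 and 1455 FPKM that share 1139 and 1224 of its coding bases. For TC007136, TC015654 and TC010609 the 2 libraries thus compare different transcripts, so a rise of the gene or of a piece of it is not shown. For TC013605, and for most of the hypoxia value of TC006639, the value is that of a piece of the gene.

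**Figure D5:**
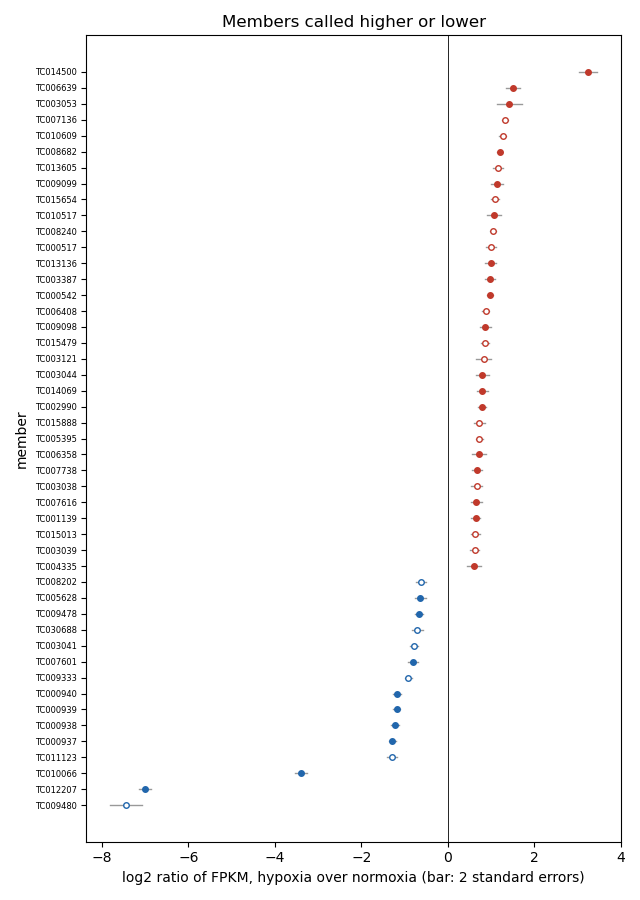
Log2 ratio of FPKM, hypoxia over normoxia, with 2 standard errors (x axis), for the 47 called members (y axis), red for higher and blue for lower. Filled points, 27 in all, were at least 1.5-fold in the same direction by the sum, the reference transcript and the highest transcript. They range from TC014500 at 3.24 to TC012207 at -7.01. They include the called members with the reference transcript alone in both libraries, for which these values are the same.

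By coding length, rises were most frequent among the shortest members. Of 32 members under 300 coding bases, 11 (34.4%) were higher and 2 lower, whereas in genes of 1 to 1000 FPKM of that length 5.45% were higher and 11.9% lower. Outside the ChLG3 stretch 6 of 23 such members (26.1%) were higher. By coverage, which is a depth per base and so divided by length as well, 10 of the 32 were higher. A call needs separate intervals, and these can be wide in short genes at low FPKM. TC003384 of the ChLG3 stretch had 7.35 FPKM in normoxia and 1.12 in hypoxia, a log2 ratio of -2.61, and was not called. Short genes at the upper end of 1 to 1000 FPKM were not compared on their own. The excess of rises is thus not read as a trait of short members. Of the 102 members of 300 to under 600 bases 13 (12.7%) were higher and 8 (7.84%) lower, against 9.60% and 10.3% of genes of 1 to 1000 FPKM of that length. Of the 65 members of 600 to under 1200 bases 4 (6.15%) were higher and 2 (3.08%) lower, against 7.16% and 12.8%. Of the 32 members of 1200 bases or more 4 (12.5%) were higher and 3 (9.38%) lower, against 7.19% and 12.4%. The share was alike across levels, since 16 of 119 members at 1000 to under 2000 FPKM, 13 of 89 at 2000 to under 5000 FPKM and 3 of 23 at 5000 FPKM or more were higher. Of the 35 members in runs 7 (20.0%) were higher and 8 (22.9%) lower, 4 of the latter in the amylase stretch. Of the 186 placed members outside runs 23 (12.4%) were higher and 7 (3.76%) lower, beside 7.54% and 12.1% of all genes.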

How the data were processed

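For each library the authors deposited a Cufflinks assembly of larval RNA-seq in which each transcript has an FPKM, an interval and a coverage signal. Per the paper, reads were trimmed for quality and compared with the BeetleBase genome. Its methods also describe a Trinity assembly with reads mapped to the unigenes, and how the deposited files relate to that route is not stated. Cufflinks is named by the files, while its version, the aligner, the annotation release and the genome build were not found in those sources. The other values in these files that the authors wrote, such as exon positions, were used as deposited. FPKM carry no read counts, so no count model was used, and an FPKM of 0 can be a failed estimate, written as listed at 0. The treated library was identified from a supplementary legend of the study.

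Each CUFF transcript was counted with the reference gene that shared the most exonic bases on its strand, or on either strand where it carries none. The gene value is the sum over transcripts, with half-widths combined as the root of summed squares. Log2 ratios used a pseudocount of 0.1 FPKM, which understates changes of low genes, and the background is genes at a mean of 1 FPKM or more. Assignment and calls were checked on simulated data. The members and lists were chosen with earlier results of these data known. Named were the 20 highest members, the 10 largest rises and falls among called members, members with a name in the study, runs of 3 or more, and the 3 genes to either side of the threshold. Members outside this rule were named after their values were seen. Alternatives changed the pseudocount, filter, scaling, threshold, fold, transcript choice and neighbour distance. No genome was used, so no sequence is shown. Software was matplotlib 3.10.9, pandas 2.3.3 and numpy 2.4.6 under Python 3.11.15.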

Additional observations from a re-analysis of the deposited data

Results flagged for a closer look

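High values also occurred outside the members. There were 8 reference genes without a TC identifier with a mean of at least 1000 FPKM, all of 71 to 73 bases. Of these, 6 were listed at 0 in hypoxia and 1 in normoxia, and in 5 the intervals reached down to 0 in both libraries. Assembled transcripts outside all reference genes reached 1000 FPKM in 2 cases in normoxia and 3 in hypoxia, all single exons on unplaced sequence. The highest had 26696 FPKM in normoxia and 21478.5 in hypoxia, above every member but TC009334, and both normoxia transcripts were overlapped by one of hypoxia.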

How the results depend on the processing

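No paired analysis was possible because each condition has 1 library. The pseudocounts of 0.01 and 1 FPKM left the counts at 32 higher and 15 lower. Centring, rescaling, leaving out joining transcripts, using coverage and using transcripts on the strand of the gene only gave 31 to 47 higher and 11 to 16 lower. The reference transcript alone gave 28 lower and the transcript with the highest mean FPKM 25 lower, with 41 and 37 higher; ratios against a listed 0 enter there. Calls made by the sum and by both of these numbered 18 higher and 9 lower. Of these, 14 and 6 have the reference transcript alone, so the choices cannot differ. A fold of 2 gave 12 and 8, and a log2 ratio beyond 2 standard errors gave 83 and 70. A threshold of 500 FPKM gave 53 and 30 among 379 members, 2000 FPKM gave 16 and 6 among 112, at least 1000 FPKM in each library gave 21 and 8, and a coding length of at least 300 bases gave 21 higher. The 1.5-fold rule alone gave 32 and 15, and leaving out members read mostly from transcripts with under 50% of the coding bases gave 24 and 12. Over all genes, 4.59% were higher and 7.39% lower with no filter. Median coding length was 540 bases and lay between 549 and 579 bases under its alternatives. Members in runs numbered 45 with a limit of 10 kb, 69 at 500 FPKM and 18 at 2000 FPKM.

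The share of the library in normoxia and hypoxia was 35.5% and 38.8% by the reference transcript, 49.2% and 53.6% without joining transcripts, 58.5% and 62.7% at 500 FPKM, 38.9% and 41.1% at 2000 FPKM, and 48.0% and 51.9% with at least 1000 FPKM in each library. It was 39.1% and 39.7% by FPKM times exonic length and likewise by coverage times length, 53.0% and 56.8% over reference genes, 54.7% and 55.1% without genes that carry no TC identifier, and 48.9% and 53.0% without TC009334. Among the named members called higher or lower, the direction reversed by the reference transcript, and by the highest transcript, for TC003041 (log2 ratio of 0.99), TC010609 (-0.54), TC015654 (-0.54) and TC011123 (0.80). These alternatives leave out the assembled transcripts that carry the main value. By each of the 2 choices, 4 of all members called higher and 2 of those called lower had the opposite sign. Chosen after seeing the data were the alternatives by coverage, by strand, by shared coding bases, by the sum with both other transcript choices, without TC009334 and without genes that carry no TC identifier.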
